A study of Homo sapiens with 4 samples.

Results

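The 37 genes described here are MYC, its dimerisation partner MAX, and genes of ribosome production and growth that are widely described as MYC targets. They were picked by symbol, and all 37 were found among the 20140 genes of the 4 deposited tables. RNA was sequenced from MDA-MB-231, an established triple-negative breast cancer cell line, grown in L-15 medium with serum and antibiotics. The groups were AURKA KD cells (titled shA, 2 libraries) and control cells with the genotype given as control (titled shC and called mock-transfected in the design text, 2 libraries). AURKA encodes Aurora kinase A, a kinase of mitosis, and the series title asks which genes it regulates at the level of transcription. The hairpin sequence, the number of clones and whether the control cells carried a hairpin are not given in the sources used here. Libraries of a group are called biological replicates in the design text, and nothing in the labels says whether they came from separate cultures. The p-values therefore measure the spread between these libraries, which may be technical.

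MYC and MAX form a dimer of basic helix-loop-helix leucine zipper proteins that binds DNA at the E-box CACGTG and drives genes for growth, above all those for making ribosomes. Ribosomes are built in the nucleolus: RNA polymerase I transcribes the ribosomal RNA precursor, small nucleolar ribonucleoproteins (snoRNPs) guide its modification, and assembly factors cut and fold it into the small and large subunits. In breast cancer cells MYC is a common driver of proliferation, and its RNA and protein are both short-lived.

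Because the E-box is the site at which MYC and MAX bind, the promoters of the genes were searched for it. RefSeq promoter sequences, 250 bases before to 50 bases after the annotated start on GRCh38.p14, were matched for 30 of the 37 genes. The letters CACGTG, which read the same on both strands, stood in 11 of these 30 promoters (36.7%), in 12.7% of the promoters of 9114 tested genes that could be matched (75.1% of those tested), and in 8.77% of the 27305 gene promoters in the table. The E-boxes lay close to the start site, with the first base between 31 bases before the start and position 36 after it. Each is written 5′ to 3′ on the gene's strand with up to 12 bases on either side, in GRCh38.p14 coordinates, with the E-box in capitals.
MRTO4, chr1:19251807-19251836, plus strand: cgtcttccgccgCACGTGgattcagcgcga
WDR43, chr2:28894658-28894687, plus strand: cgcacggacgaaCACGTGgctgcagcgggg
RRP9, chr3:51941892-51941921, minus strand: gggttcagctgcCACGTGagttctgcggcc
GNL3, chr3:52686026-52686055, plus strand: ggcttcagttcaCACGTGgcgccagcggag
NOP14, chr4:2963374-2963403, minus strand: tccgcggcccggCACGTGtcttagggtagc
GAR1, chr4:109815781-109815810, plus strand: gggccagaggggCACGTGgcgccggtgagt
DDX21, chr10:68956604-68956633, plus strand: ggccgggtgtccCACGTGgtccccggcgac
NOP2, chr12:6568242-6568268, minus strand: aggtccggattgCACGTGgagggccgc
UTP20, chr12:101280083-101280112, plus strand: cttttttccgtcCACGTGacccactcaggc
FBL, chr19:39846356-39846385, minus strand: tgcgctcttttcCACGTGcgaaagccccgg
PES1, chr22:30591880-30591909, minus strand: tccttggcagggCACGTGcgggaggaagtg
MRTO4, WDR43, PES1 and UTP20 are among the genes that were called higher in replicate 2 than in replicate 1 libraries. FBL and GNL3 are among those lower in both AURKA KD libraries than in both control libraries. So were 16.6% of all genes tested. Of promoters matched for genes called between replicate numbers, 4 of 10 held the letters (40.0%), as did 7 of 20 of the other matched promoters (35.0%). The E-boxes of UTP20 and DDX21 lie whole before the start, and the other 9 lie across or after it. The 250 bases before the start of UTP20 hold its E-box near their end.
UTP20, chr12:101279855-101280104, plus strand: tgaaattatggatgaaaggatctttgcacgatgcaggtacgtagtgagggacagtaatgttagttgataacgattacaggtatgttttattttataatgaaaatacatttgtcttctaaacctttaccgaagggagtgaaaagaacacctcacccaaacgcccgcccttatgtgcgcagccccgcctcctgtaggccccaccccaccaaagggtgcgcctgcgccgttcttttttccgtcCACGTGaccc
A match of letters is a description of the sequence and is no measurement of binding.

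The tables give a value for each of 81493 transcripts in each library. The values are FPKM, fragments per kilobase of transcript after scaling for depth, as judged from the numbers themselves. They were summed to genes, and limma was run on log2(FPKM + 1) for the 12137 genes that reached 1 FPKM in 2 or more libraries. All 37 genes passed that filter, and the scale understates differences of low genes. AURKA was at 22.3 and 23.7 FPKM in AURKA KD replicates 1 and 2, against 124.1 and 99.1 FPKM in control replicates 1 and 2. Its log2 difference was -2.22 (SE 0.15, adjusted p = 0.0822, and 0.000633 with the replicate number as a term). Depth was estimated from the steps of low values at roughly 17400000 to 27600000 fragments per library. At that depth the smallest number of fragments among the 31 genes with an estimate was about 258, for POLR1C in AURKA KD replicate 1, which gives a counting error of 6.23%. Such errors cover counting alone. The 6 markers of MDA-MB-231 cells summed to 3019 and 3020 FPKM in AURKA KD libraries and to 3284 and 3324 FPKM in control libraries. AXL among them was at 227.3 and 230.7 FPKM in AURKA KD libraries, against 292.4 and 317.8 FPKM in control libraries. Its log2 difference was -0.41 (adjusted p = 0.57, and 0.046 with the replicate number as a term). Of 5 luminal breast markers, ESR1 and PGR were under 1 FPKM in every library, and the luminal sum was at most 10.3 FPKM. Of 3 leukocyte markers PTPRC and CD3E were at or near 0, while CD68, a lysosomal protein, was at 47.6 and 52.6 FPKM in AURKA KD libraries and at 64.1 FPKM in each control library. Its part in the results was not tested. The endothelial and blood markers found were at or near 0, and the fibroblast markers summed to at most 2.77 FPKM, mostly from PDGFRB.

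The levels of the 37 genes spanned a wide range. NPM1, the nucleolar chaperone nucleophosmin, was highest, with 1364 and 1673 FPKM in AURKA KD libraries and 1493 and 2147 FPKM in control libraries. Processed copies of NPM1 exist in the genome, and how reads were shared among them is not stated, so its level is uncertain. NCL, which encodes nucleolin, followed with a mean of 632.7 FPKM over the 4 libraries. NHP2, a core protein of box H/ACA snoRNPs, came next with a mean of 212.0 FPKM, but its range of 183.4 to 237.9 FPKM overlapped those of FBL (161.3 to 232.1 FPKM) and PA2G4 (143.3 to 248.5 FPKM). The lowest were WDR12, RRP9 and POLR1C, with means of 13.2, 12.9 and 12.5 FPKM and overlapping ranges. The median of the 37 gene means was 43.3 FPKM, against 15.2 FPKM over all genes tested. MYC, with a mean of 19.8 FPKM, stood in place 31 of 37.

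**Figure D1:**
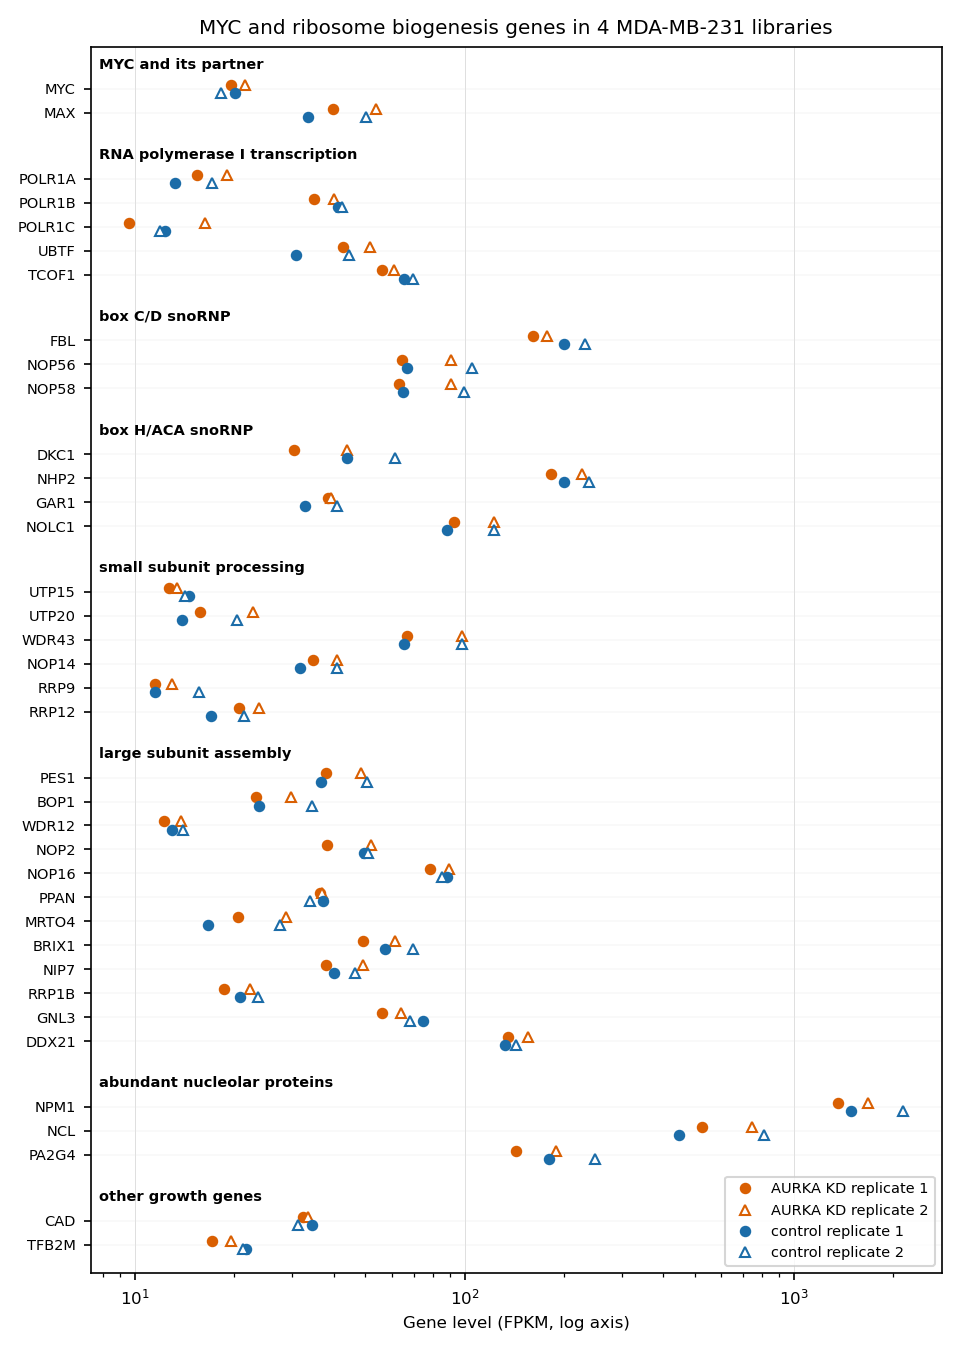
Level of each of the 37 genes in FPKM (log axis) in AURKA KD (orange, upper of each row) and control (blue, lower) libraries, with circles for replicate 1 and open triangles for replicate 2, grouped by role. NPM1 lies highest at 1364 to 2147 FPKM, MYC lies at 18.2 to 21.6 FPKM, and triangles lie right of the circles of their group for most genes.

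The knockdown was compared with control to ask whether this programme differed in cells with less AURKA. No gene of the 37 passed an adjusted p of 0.05, in a fit of limma that called 0% of the 12137 genes tested, with 777 of those at an unadjusted p under 0.05. FBL alone had an unadjusted p under 0.05, and the smallest adjusted p of the 37 was 0.749. The log2 difference was above 0 for 16 genes and below 0 for 21, with a median of -0.04 against 0.01 over all genes tested. The tables of a replicate number shared a row order and loci that the tables of the other number did not. The number thus also marks a difference between tables, perhaps a run of quantification, which the labels do not state. Fits with the number as a term are therefore given beside the results. With that term DKC1 alone was called lower, in a fit that called 1.92% of genes lower, and none was called higher, against 1.6% of genes, while 7 of the 37 had an unadjusted p under 0.05 (18.9%), against 22.1% of all genes tested. That fit leaves a single residual degree of freedom per gene. In simulated data it gave more false calls than the threshold of 0.05 allows, and this limit holds for every call from it below.

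MYC itself differed by less than its spread. It was at 19.5 and 21.6 FPKM in AURKA KD replicates 1 and 2, against 20.0 and 18.2 FPKM in control replicates 1 and 2. The groups overlapped, with AURKA KD replicate 1 between the control libraries. The log2 difference was 0.10 (SE 0.14, adjusted p = 0.946, and 0.638 with the replicate number as a term). The gene (ENSG00000136997) has its locus on chromosome 8 at 128747680 to 128753674 in GRCh37. A pair of transcripts carried nearly all of its level. ENST00000524013 was at 9.77 and 9.40 FPKM in AURKA KD libraries and at 9.81 and 10.2 FPKM in control libraries. ENST00000377970 was at 9.28 and 11.5 FPKM in AURKA KD libraries and at 9.16 and 7.64 FPKM in control libraries. The first was thus nearly level over the libraries and the second was highest in AURKA KD replicate 2 and lowest in control replicate 2. With the highest transcript of each gene alone, the difference of MYC was -0.06. These are estimates by transcript, and RNA levels give no measure of MYC protein.

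MAX was at 39.8 and 53.8 FPKM in AURKA KD replicates 1 and 2, against 33.4 and 50.1 FPKM in control replicates 1 and 2. The AURKA KD library was the higher of each pair, while the groups overlapped because replicate 2 was the higher of each group. The log2 difference was 0.17 (SE 0.24, adjusted p = 0.946, and 0.292 with the replicate number as a term). It turned to -0.04 without AURKA KD replicate 2 and to -0.11 without control replicate 1. Those fits left the groups unequal in replicate number, so the difference between the numbers enters them. With the highest transcript alone the log2 difference of MAX was -0.04. The main transcript, ENST00000358402, was nearly level, with 16.7 and 18.1 FPKM in AURKA KD libraries and 16.6 and 19.2 FPKM in control libraries. ENST00000556979 was at 8.34 and 19.3 FPKM in AURKA KD libraries and at 6.97 and 12.02 FPKM in control libraries, so it differed more between replicate numbers than between groups. The locus of MAX in the files, on chromosome 14 at 65381079 to 65569413 in GRCh37, also holds 5 other genes.

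Among the 5 genes of RNA polymerase I transcription, TCOF1 was lower and UBTF higher in the AURKA KD library of each pair, and neither passed. TCOF1 encodes treacle, which recruits the polymerase to ribosomal DNA. It was at 56.1 and 61.0 FPKM in AURKA KD libraries, against 65.4 and 69.5 FPKM in control libraries. Both AURKA KD libraries lay below both control libraries, with a log2 difference of -0.20 (SE 0.12, adjusted p = 0.851, and 0.199 with the replicate number as a term). UBTF, the upstream binding factor that opens ribosomal DNA, was at 42.7 and 51.7 FPKM in AURKA KD libraries, against 30.8 and 44.6 FPKM in control libraries. The groups overlapped, and the difference of 0.33 (SE 0.21) had an adjusted p of 0.854, and of 0.105 with the replicate number as a term. The level of UBTF was spread over 10 transcripts. The catalytic subunits POLR1A and POLR1B differed by 0.17 and -0.16 on the log2 scale. POLR1C, a subunit shared with RNA polymerase III, was at 9.59 and 16.3 FPKM in AURKA KD libraries, against 12.3 and 11.9 FPKM in control libraries. The AURKA KD libraries lay on either side of the control libraries, so its pairs went in opposite directions (-0.33 and 0.42).

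The box C/D snoRNP proteins modify ribosomal RNA by 2′-O-methylation, and all 3 were lower in the AURKA KD library of each pair. FBL, which encodes the methyltransferase fibrillarin, was at 161.3 and 177.7 FPKM in AURKA KD libraries, against 200.8 and 232.1 FPKM in control libraries. Both AURKA KD libraries lay below both control libraries. The log2 difference was -0.35 (SE 0.13, unadjusted p = 0.0414, adjusted p = 0.749, and 0.0622 with the replicate number as a term). The pairs differed by -0.31 and -0.38. Its main transcripts, ENST00000221801 and ENST00000597224, were each lower in both AURKA KD libraries than in both control libraries. The first was at 92.3 and 97.9 FPKM in AURKA KD libraries and at 113.5 and 128.0 FPKM in control libraries. NOP56 and NOP58, the scaffold proteins of the same particle, differed by -0.13 and -0.08, well within their standard errors of 0.27 and 0.26. The ratio of NOP56 to FBL was 0.401 and 0.513 in AURKA KD libraries, against 0.333 and 0.454 in control libraries. Within each pair the ratio was higher in the AURKA KD library.

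The box H/ACA snoRNPs turn uridine into pseudouridine, and DKC1, which encodes their catalytic protein dyskerin, had the largest difference of the 37 genes. It was at 30.4 and 43.9 FPKM in AURKA KD replicates 1 and 2, against 43.8 and 61.3 FPKM in control replicates 1 and 2. AURKA KD replicate 1 was lowest and control replicate 2 highest, and AURKA KD replicate 2 lay just above control replicate 1, so the groups overlapped. The log2 difference was -0.49 (SE 0.24, adjusted p = 0.815), and the pairs differed by -0.51 and -0.47. With the replicate number as a term the standard error was 0.08 and the adjusted p 0.0307. That call was lost with no filter on low values (adjusted p = 0.167) and in limma without the intensity trend (0.1). It was also lost with the highest transcript of each gene alone (log2 difference -0.34, adjusted p = 0.108). Without the filter the fit with the replicate number called 0 of all genes tested, and AURKA had an adjusted p of 0.0934. DKC1 (ENSG00000130826) lies on chromosome X at 153991031 to 154005964 in GRCh37.

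DKC1 has 3 transcripts in the tables. ENST00000369550 was at 30.1 and 42.9 FPKM in AURKA KD libraries, against 39.5 and 52.8 FPKM in control libraries. The control libraries also had 4.31 FPKM of ENST00000437719 in replicate 1 and 8.50 FPKM of ENST00000413910 in replicate 2. The main transcript took 99.2% and 97.7% of the gene in AURKA KD libraries, against 90.2% and 86.1% in control libraries. The rest was thus a different transcript in each control library, as ENST00000437719 was at 0 in control replicate 2 and ENST00000413910 at 0 in control replicate 1. These are estimates by transcript, and the shares have no test.

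The partners of dyskerin had differences nearer 0. NHP2 was at 183.4 and 226.4 FPKM in AURKA KD libraries, against 200.3 and 237.9 FPKM in control libraries, a log2 difference of -0.10 (SE 0.16, adjusted p = 0.955). GAR1 was at 38.4 and 39.4 FPKM in AURKA KD libraries, against 32.7 and 41.1 FPKM in control libraries, a difference of 0.08 (SE 0.15). NOP10, the fourth protein of the particle and no member of the 37, was at 194.0 and 186.3 FPKM in AURKA KD libraries, against 177.9 and 187.8 FPKM in control libraries, a difference of 0.06 (SE 0.11). The groups overlapped for all 3. As ratios within a library, NHP2 to DKC1 stood at 6.04 and 5.16 in AURKA KD libraries, against 4.57 and 3.88 in control libraries. GAR1 to DKC1 stood at 1.26 and 0.897 in AURKA KD libraries, against 0.748 and 0.670 in control libraries. All AURKA KD ratios lay above all control ratios for NHP2, GAR1 and NOP10. These ratios have no test of their own, and DKC1 was singled out after its values were seen. NOLC1, a snoRNP chaperone that binds both kinds of particle, differed by 0.03.

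**Figure D2:**
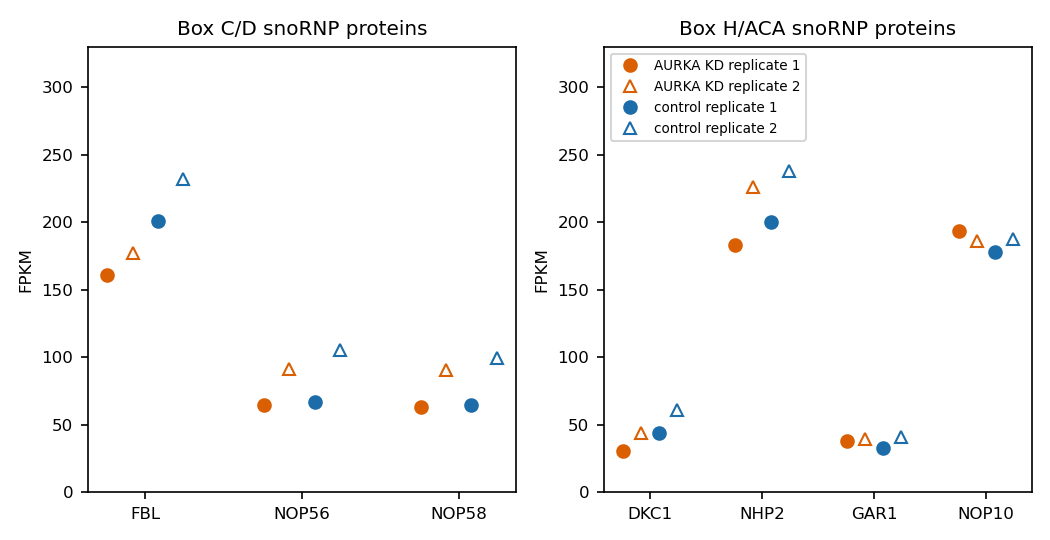
Level in FPKM of FBL, NOP56 and NOP58 of box C/D snoRNPs (left) and of the core proteins of box H/ACA snoRNPs (right) in each library. AURKA KD is in orange and control in blue, with circles for replicate 1 and open triangles for replicate 2. FBL is lower in both AURKA KD libraries (161.3 and 177.7 FPKM) than in both control libraries (200.8 and 232.1 FPKM), DKC1 is lower within each pair, and NHP2, GAR1 and NOP10 overlap between groups.

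**Figure D3:**
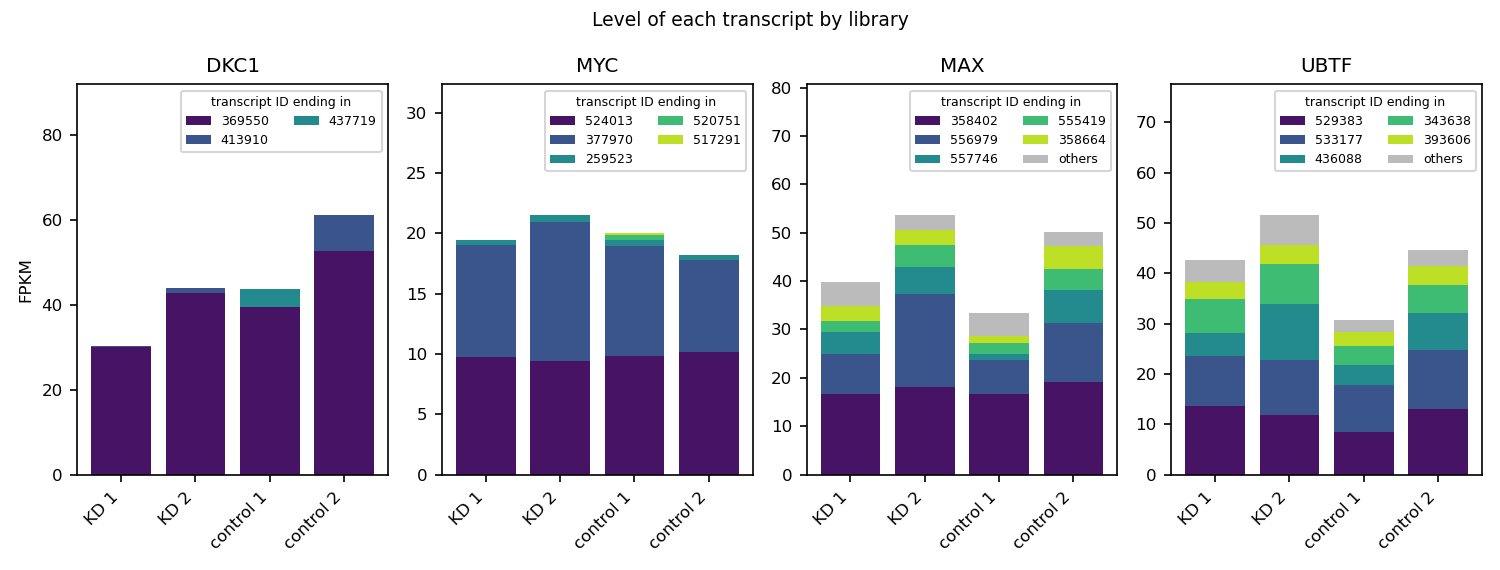
Level in FPKM of each transcript of DKC1, MYC, MAX and UBTF, stacked to the gene level, in AURKA KD (KD) and control libraries 1 and 2. The main transcript of DKC1 takes 97.7% or more of the gene in AURKA KD libraries and 90.2% or less in control libraries. The rest is a different transcript in each control library. Both main transcripts of MYC are at 10.2 FPKM or below except in AURKA KD replicate 2.

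The 6 genes of small subunit processing showed no common direction, with 4 above and 2 below 0. They act in or with the small subunit processome, the complex that cuts the precursor to free the 18S RNA. UTP20 and RRP12 were higher in the AURKA KD library of each pair, by means of 0.16 and 0.20, and UTP15 and RRP9 lower, by means of -0.12 and -0.13. RRP9, a protein of the U3 snoRNP, was at 11.5 and 12.9 FPKM in AURKA KD libraries, against 11.5 and 15.6 FPKM in control libraries, so the libraries of replicate 1 were nearly equal. WDR43 and NOP14 differed by 0.02 and 0.07. No adjusted p of these 6 was below 0.896. The level of UTP15 rests on a transcript that stood in the tables of replicate 1 alone and another in those of replicate 2 alone. With transcripts of all 4 tables only, its sign changed and the median of the 37 genes was -0.002.

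Of 12 genes of large subunit assembly, 9 were below 0 and 3 above. GNL3, which encodes the nucleolar GTPase nucleostemin, was at 56.0 and 64.1 FPKM in AURKA KD libraries, against 74.9 and 68.1 FPKM in control libraries. Both AURKA KD libraries lay below both control libraries, with a log2 difference of -0.25 (SE 0.13, adjusted p = 0.822, and 0.208 with the replicate number as a term). The pairs differed by -0.42 and -0.08. BRIX1, a factor of early large subunit particles, was lower in each pair by -0.22 and -0.18. The PeBoW complex, needed for the 28S and 5.8S RNAs, consists of PES1, BOP1 and WDR12, which differed by -0.002, -0.12 and -0.04. WDR12 was at 12.3 and 13.8 FPKM in AURKA KD libraries, against 12.9 and 14.0 FPKM in control libraries. The ratio of BOP1 to PES1 was 0.612 and 0.610 in AURKA KD libraries, against 0.651 and 0.681 in control libraries. MRTO4, the factor that holds the place of the stalk protein P0, and the RNA helicase DDX21 differed by 0.17 and 0.07. NOP2, the 5-methylcytosine methyltransferase of 28S RNA, differed by -0.16, with -0.36 and 0.03 in the pairs. NOP16, PPAN, NIP7 and RRP1B differed by -0.05, 0.05, -0.002 and -0.11.

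NPM1 and PA2G4 were lower in the AURKA KD library of each pair. PA2G4, a nucleolar protein that binds ribosomal precursors, was at 143.3 and 189.5 FPKM in AURKA KD libraries, against 180.0 and 248.5 FPKM in control libraries. AURKA KD replicate 2 was above control replicate 1, so the groups overlapped. The log2 difference was -0.36 (SE 0.21, adjusted p = 0.852, and 0.0581 with the replicate number as a term). NPM1 differed by -0.24 (SE 0.22, adjusted p = 0.909). NCL was at 524.1 and 745.7 FPKM in AURKA KD libraries, against 448.3 and 812.8 FPKM in control libraries, and its pairs went in opposite directions (0.23 and -0.12). TFB2M, a factor of mitochondrial transcription, was at 17.1 and 19.6 FPKM in AURKA KD libraries, against 21.8 and 21.2 FPKM in control libraries. Both AURKA KD libraries lay below both control libraries, with a difference of -0.22 (SE 0.14, adjusted p = 0.854). CAD, the enzyme that starts pyrimidine synthesis, differed by 0.007.

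Counted over pairs, 17 of the 37 genes were lower in the AURKA KD library of both pairs (45.9%), against 31.7% of all genes tested. In 7 genes the AURKA KD library was the higher in both pairs (18.9%), against 35.3% of all genes tested, and in 13 the pairs went in opposite directions. Both AURKA KD libraries lay below both control libraries in 6 genes, in a comparison where 16.6% of genes did so, and above them in none, where 19.4% of genes did so. The 6 are FBL, GNL3, TCOF1, TFB2M, POLR1B and UTP15. The place of UTP15 rests on transcripts found in the tables of a single replicate number, and its sign changed without them. Genes measured in the same library share its conditions, so these counts are not counts of independent events. The median over the 37 genes was -0.05 in each pair. It was 0.06 without AURKA KD replicate 1 and 0.03 without control replicate 2. Without AURKA KD replicate 2 and without control replicate 1 it was -0.20 and -0.18. With a library left out the groups are unequal in replicate number, so the difference between the numbers enters these medians. In bulk RNA, fewer cells that express a gene and less RNA per cell cannot be told apart.

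**Figure D4:**
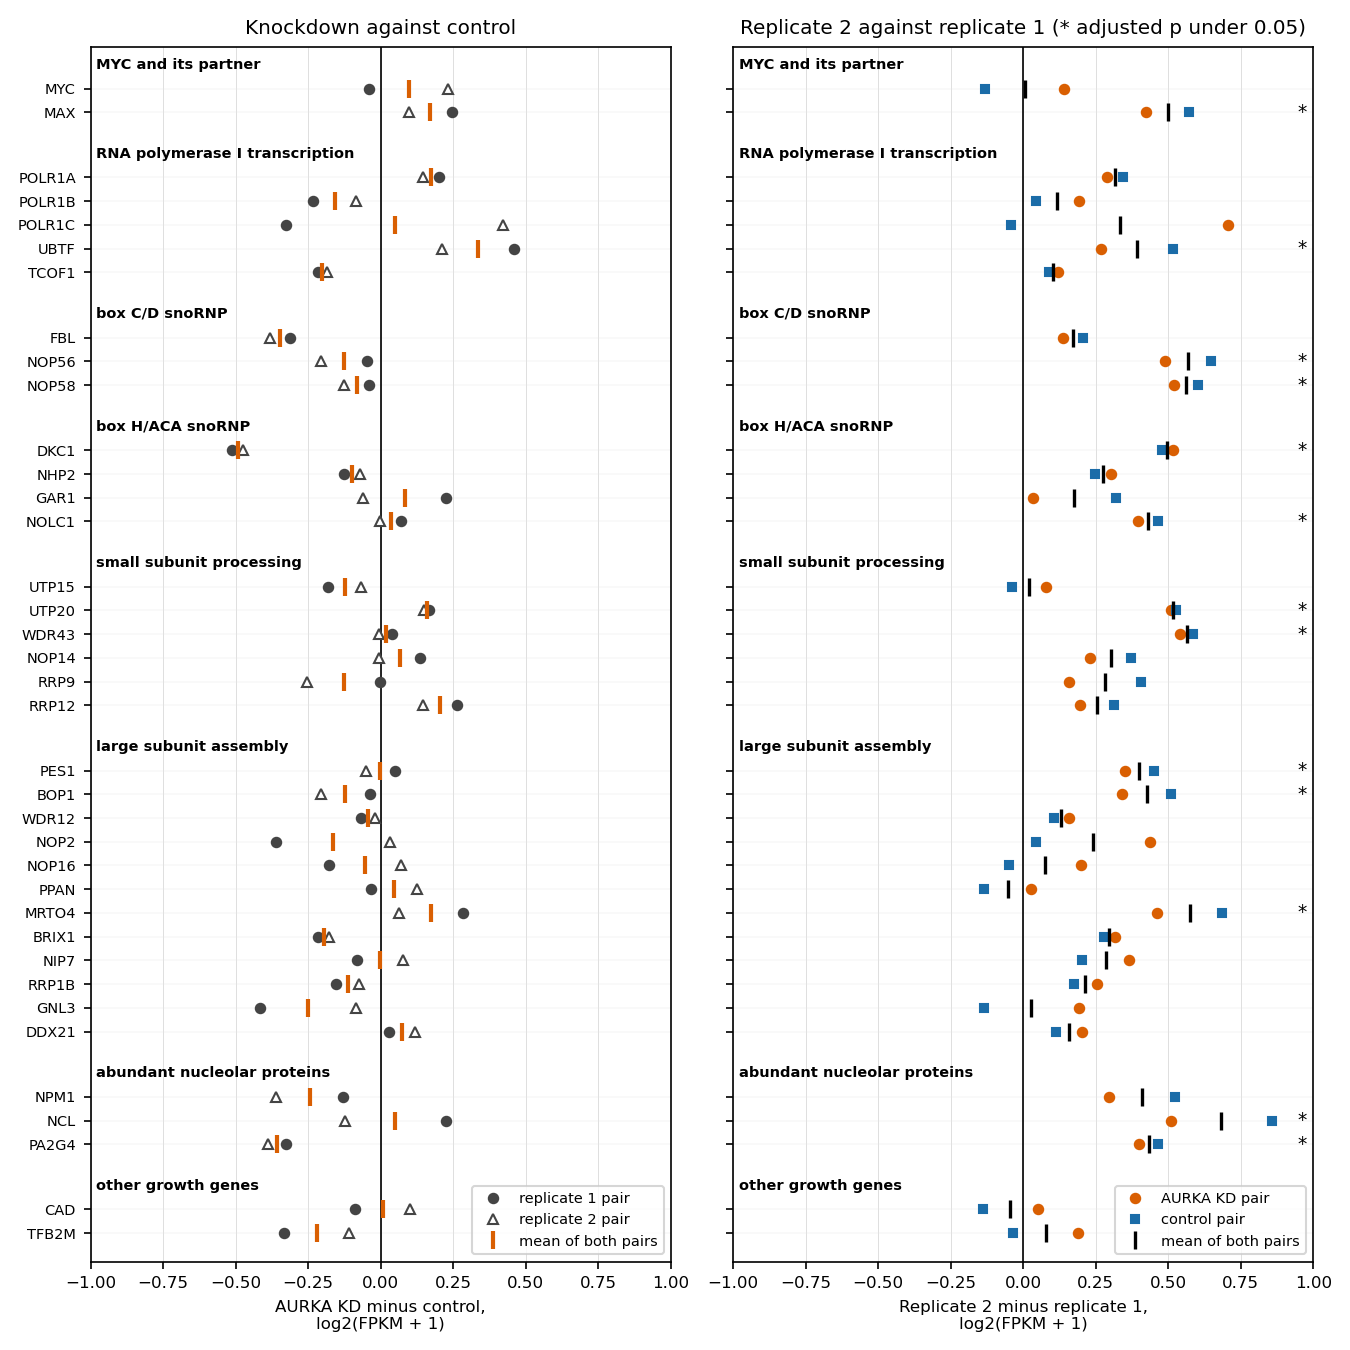
Difference of each gene in log2(FPKM + 1), with AURKA KD minus control in each replicate pair on the left and replicate 2 minus replicate 1 in each group on the right, bars marking the mean and stars an adjusted p under 0.05 for the right panel. On the left the genes lie on either side of 0 with DKC1 at -0.49, and on the right 35 of 37 means lie above 0 and 13 carry a star.

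Replicate 2 was then set against replicate 1, with the genotype as a term. That fit has the same terms as the knockdown fit with the replicate number. It too leaves a single residual degree of freedom per gene. The rate of false calls between replicate numbers was not simulated. In this comparison 35 of 37 genes were above 0 (94.6%), against 41.9% of all genes tested. Of the 37, 13 were called higher in replicate 2, in a fit that called 4.8% of genes higher, and 0 were called lower, against 9.22% of genes. An unadjusted p under 0.05 was reached by 21 of the 37 (56.8%), against 35.1% of all genes tested. The median log2 difference was 0.28 over the 37 genes and -0.06 over all genes tested. It was 0.29 between the AURKA KD libraries and 0.31 between the control libraries. In 29 genes replicate 2 was the higher library of both groups (78.4%), against 30.8% of all genes tested, and no gene was lower in both. Genes measured in the same library share its conditions, so these too are not counts of independent events. The 37 genes were also chosen with earlier results of these data known. The summed level of the 37 genes was 4581 and 5273 FPKM in the replicate 2 libraries of AURKA KD and control, against 3639 and 3836 FPKM in their replicate 1 libraries. That is 0.637% and 0.692% of all FPKM in replicate 2, against 0.486% and 0.532% in replicate 1.

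**Figure D5:**
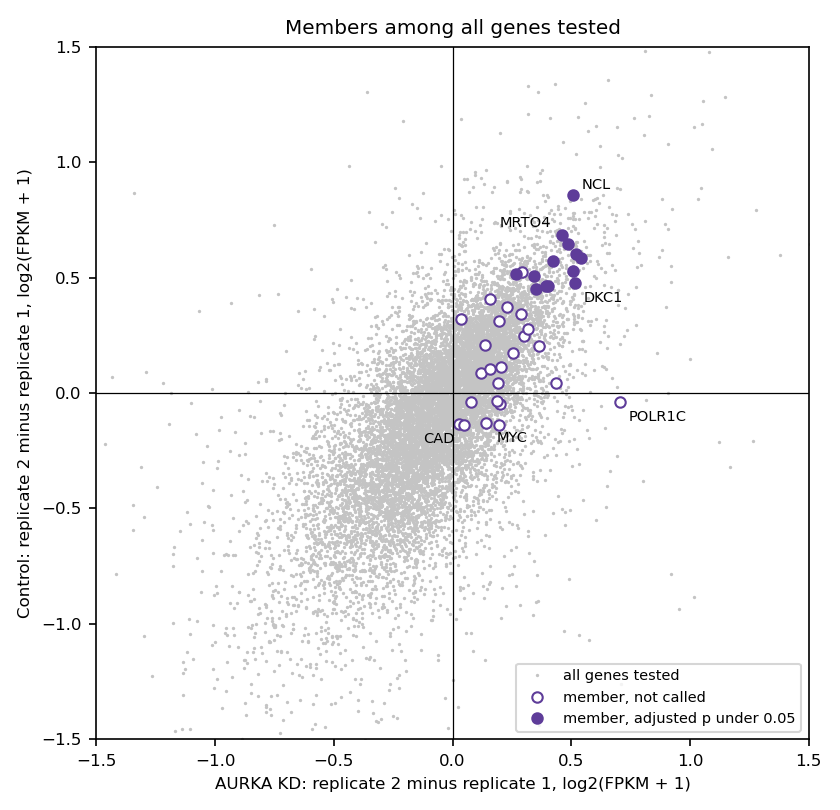
Difference of replicate 2 minus replicate 1 in log2(FPKM + 1) in AURKA KD (x axis) and control (y axis) for the 37 genes (purple, filled where the adjusted p is under 0.05) and all 12137 genes tested (grey, 81 of them outside the axes). The 13 filled points lie upper right, with NCL at 0.51 and 0.86, while MYC and CAD lie near 0 and POLR1C is high in AURKA KD alone (0.71 against -0.04).

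The 13 genes come from nearly every step of ribosome production. NCL had the largest difference, with 745.7 and 812.8 FPKM in the replicate 2 libraries of AURKA KD and control, against 524.1 and 448.3 FPKM in their replicate 1 libraries. Both replicate 2 libraries lay above both replicate 1 libraries, by 0.68 on the log2 scale (SE 0.11, adjusted p = 0.0176). MRTO4 was at 28.7 and 27.4 FPKM in the replicate 2 libraries of AURKA KD and control, against 20.5 and 16.7 FPKM in their replicate 1 libraries. The difference of 0.57 (SE 0.10) had an adjusted p of 0.0207. NOP56 and NOP58 moved alike. NOP56 was at 91.2 and 105.4 FPKM in the replicate 2 libraries of AURKA KD and control, against 64.7 and 66.9 FPKM in their replicate 1 libraries. NOP58 was at 91.0 and 99.3 FPKM in the replicate 2 libraries, against 63.2 and 65.1 FPKM in the replicate 1 libraries. Their differences were 0.57 and 0.56 (SE 0.08 each, adjusted p = 0.015 and 0.0144). FBL, their partner in the same particle, differed by 0.17 (SE 0.08) and did not pass, with an adjusted p of 0.162.

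In the small subunit processome, WDR43 was at 98.0 and 98.4 FPKM in the replicate 2 libraries of AURKA KD and control, against 67.1 and 65.3 FPKM in their replicate 1 libraries. The difference was 0.56 (SE 0.08, adjusted p = 0.0144), with nearly equal values in both groups of a number. UTP20 was at 22.7 and 20.4 FPKM in the replicate 2 libraries of AURKA KD and control, against 15.7 and 13.9 FPKM in their replicate 1 libraries. Its difference was 0.52 (SE 0.10, adjusted p = 0.0231). In both genes the replicate 2 libraries lay above the replicate 1 libraries. MAX (0.50), DKC1 (0.50), PA2G4 (0.43), NOLC1 (0.43), BOP1 (0.43), PES1 (0.40) and UBTF (0.39) also rose, with adjusted p between 0.0189 and 0.0397. With the highest transcript of each gene alone the differences of MAX, BOP1 and UBTF were 0.155, 0.203 and 0.183. Neither these genes nor PES1 passed then. UBTF alone of the 37 genes had a locus that differed between the tables of the replicate numbers. The largest values of DKC1 and PA2G4 were in control replicate 2. MYC differed by 0.01 (SE 0.11, adjusted p = 0.977) and did not pass. Whether MYC has a part in the difference between replicate numbers was not tested. PPAN and CAD had means below 0, at -0.05 and -0.04.

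The calls between replicate numbers depended on how the spread was estimated. None of the 13 was called without a filter on low values, in limma without the intensity trend or without the genotype term. Without the filter the fit called 0 of all 17671 genes then tested, so that loss is not particular to the 13. With median-of-ratios scaling 19 of the 37 were called higher and with upper-quartile scaling 17. The split over all genes moved with the scaling: 582 genes were higher and 1119 lower as deposited, 1259 higher and 1101 lower with median-of-ratios scaling, and 925 higher and 1346 lower with upper-quartile scaling. The number marks a difference between tables, perhaps a quantification run, and may also mark a culture, and these cannot be told apart here. Depth moved with it too, at an estimated 27600000 and 24100000 fragments in the replicate 2 libraries of AURKA KD and control, against 21200000 and 17400000 fragments in their replicate 1 libraries, and its part in the result was not tested.

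The other genes of these pathways were followed as lists by function. Without the replicate number none of their genes was called in the knockdown comparison, with at most 2 genes of a list at an unadjusted p under 0.05. With it, 3 of 26 tested MYC targets outside ribosome biogenesis were called lower and 0 higher (list median -0.06). That fit called 0 of all genes without the filter on low values and 24 without the intensity trend, so every call it gave in these lists was lost without the filter. ODC1, the first enzyme of polyamine synthesis, was at 21.0 and 34.5 FPKM in AURKA KD libraries, against 56.7 and 91.8 FPKM in control libraries, with a log2 difference of -1.39 and an adjusted p of 0.00109 in that fit. Both AURKA KD libraries lay below both control libraries. SRM, spermidine synthase, differed by -0.40 (adjusted p = 0.0479) and EIF4A1, the helicase of the cap-binding complex, by -0.48 (adjusted p = 0.0431), both without overlap of the groups. Of 18 tested genes of the MYC network, meaning dimer partners, cofactors and regulators of stability, PIM1 was called lower (-0.71, adjusted p = 0.0318) and 0 higher. MXD4, a dimer partner of MAX that represses E-box genes, had a difference of 0.29 and an adjusted p of 0.188 in the same fit.

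Of 7 tested genes that MYC is known to repress, 0 were called, and the list median was -0.28. With the replicate number as a term 4 of the 7 had an unadjusted p under 0.05, against 22.1% of all genes tested. TXNIP, an inhibitor of thioredoxin, was at 34.3 and 12.4 FPKM in AURKA KD libraries, against 289.3 and 24.4 FPKM in control libraries, so control replicate 1 stood far above the rest. Its difference was -1.98 (SE 1.15, adjusted p = 0.849, and 0.0531 with the replicate number as a term). CDKN1A, an inhibitor of cyclin-dependent kinases, differed by -0.53 (adjusted p = 0.808, and 0.137 with the replicate number as a term).

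The lists of ribosome assembly gave few calls by group. Of 44 further genes of the small subunit processome, UTP11L alone was called lower with the replicate number as a term. It was at 27.1 and 31.3 FPKM in AURKA KD libraries, against 39.9 and 47.1 FPKM in control libraries, with a difference of -0.56 and an adjusted p of 0.0234. DHX37, a helicase that releases the U3 RNA, differed by 0.33 (adjusted p = 0.147 in that fit). Of 43 further genes of large subunit assembly 0 were called and 6 had an unadjusted p under 0.05 (14.0%, against 22.1% of all genes tested), with RPF1 at -0.36 and FTSJ3 at -0.34 (adjusted p = 0.0611 and 0.0795 in that fit). Of 18 further genes of RNA polymerase I 0 were called and 4 had an unadjusted p under 0.05 (22.2%, near the share of all genes), with the promoter factor subunits TAF1A at -0.34 and TAF1D at -0.33. Of 10 genes of snoRNP assembly 0 were called, 1 had an unadjusted p under 0.05, and 9 were below 0. Among these NHP2L1, the protein of box C/D particles that binds the RNA fold first, was at 176.8 and 181.9 FPKM in AURKA KD libraries, against 203.1 and 222.7 FPKM in control libraries, with a difference of -0.24 and an adjusted p of 0.139 in that fit. TGS1, which modifies the cap of small nucleolar RNAs, differed by -0.23. The medians of these 4 lists, in the order named, were -0.02, -0.08, -0.05 and -0.12.

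Between replicate numbers the lists are read against all genes tested, of which 41.9% were above 0, 4.8% were called higher and 9.22% lower. The lists were chosen with earlier results of these data known, and their genes come from the same libraries as the 37. Their counts are thus not independent of those above. Of the 44 small subunit genes 41 were above 0, with 10 called higher and NOP9 called lower, and of the 43 large subunit genes 37 were above 0, with 8 called higher and 0 lower. Of the 26 MYC targets outside ribosome biogenesis 24 were above 0, with 10 called higher and 0 lower, ODC1 and SRM among them. CCND2 was also among the 10. It was at 1.215 and 1.456 FPKM in AURKA KD and control replicate 2, against 0 and 0.008 FPKM in replicate 1. CCND2 passed the filter through the replicate 2 libraries alone, so its call is no independent support. Of the 18 RNA polymerase I genes 11 were above 0, and POLR1E alone was called. Of the 7 genes that MYC is known to repress 0 were above 0, and TXNIP was called lower (-2.46, adjusted p = 0.0194). In the MYC network 7 of 18 were above 0 (38.9%), near the share of all genes. The regulator KIAA1524 was called higher there, and PIM1 and the MAX partners MXD3, MXD4 and MNT were called lower. NOP9, POLR1E, KIAA1524, MXD3, MNT and CCND2 were named after their values were seen.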

How the data were processed

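Each library has 1 table of transcript values as deposited, and the file headers name no unit. The deposited values were taken as FPKM, since they are not whole and their totals differ between libraries (718976 to 761641). Tools listed in the submitters' processing notes are HTSeq 0.8.0 and bcl2fastq 2.19, with the build hg38, while the deposited loci are in GRCh37 coordinates. A program for the authors' FPKM values was not given in the sources used here. Values were summed by gene ID, and 6 genes found in the tables of 1 replicate number alone were left out. The test planned for counts could not be used, so limma 3.58.1 in R 4.3.3 was run with an intensity trend on log2(FPKM + 1), two-sided, with Benjamini-Hochberg adjustment over 12137 genes and a threshold of 0.05. The knockdown fits were tested on simulated data. With the replicate number in the fit, the false calls exceeded their nominal rate there.

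The replicate number pairs libraries in the files: tables of a number share row order, while 1707 shared transcripts have another locus and 81 transcripts differ between the numbers. Strand is not stated, so antisense and overlapping genes cannot be told apart, and 16 of the 37 genes share a locus with others. The members and lists were chosen with earlier results of these data known. Values per library are given for MYC, MAX, genes called in either knockdown fit, genes whose groups do not overlap with a mean log2 difference of at least 0.2, the 3 highest and 3 lowest genes, and the 6 that differ most between replicate numbers. For the other lists, genes called by group are named. Outside the cell type markers, the 2 largest differences among genes averaging at least 10 FPKM are named too. The few others were chosen after their values were seen. The lists are the MYC network, MYC targets outside ribosome biogenesis, genes MYC is known to repress, RNA polymerase I factors, small subunit processome, large subunit assembly, snoRNP assembly and cell type markers. The alternatives were other pseudocounts, filters and scalings, limma without the trend, shared or highest transcripts, the replicate number as a term, and each library left out.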

Additional observations from a re-analysis of the deposited data

How the results depend on the processing

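In the knockdown comparison the number of the 37 genes called higher stayed at 0 under every alternative run, and the number called lower moved from 0 to 1 (DKC1) with the replicate block, which changed no other call of the 37. Leaving out each library in turn gave 0 calls in either direction. Within the replicate block fit, the number called lower was 0 with no filter on low values, in limma without the trend and with the highest transcript of each gene, and 1 with the other alternatives. Between replicate numbers the number called higher was 0 with no filter, in limma without the trend and with no genotype term. It was 10 with the highest transcript and 13 to 19 otherwise. With no filter, 0 of all genes tested were called in this comparison and in the replicate block fit. MAX, PES1, BOP1 and UBTF were the genes lost with the highest transcript. The cause of these changes was not tested. The differences of MYC and MAX turned to -0.056 and -0.041 with the highest transcript, with and without the replicate block. Leaving out each library in turn gave a range of -0.114 to 0.457 for MAX. For the median of the 37 genes it gave -0.203 to 0.059 between groups and 0.288 to 0.312 between replicate numbers, where no test was possible. Between groups these fits had no term for the replicate number, so the difference between the numbers enters both ranges. The alternatives combined with the replicate block and those with the highest transcript were chosen after seeing the data. FBL was between -0.452 and -0.245 over all alternatives without the replicate number, with an adjusted p of 0.496 to 1. Counting errors of POLR1C and RRP9, the lowest of the genes with an estimate of fragments, were at most 6.23% and 5.63%.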
